A study of Mus musculus with 2 samples.

Results

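The collagen genes were taken by symbol, as every name made of Col, a number, the letter a and a number, which gave 44 of the 32285 genes in the deposited lists. Cells came from cerebella of mouse embryos at E16.5, and transcripts were counted in droplets from their 3′ ends with unique molecular identifiers (UMIs), each marking 1 captured molecule. The control embryos are described only as cre-negative, and the labels do not name their floxed alleles. The mutants carried Blbp-cre, Smarca4fl/fl and the Ctnnb1(ex3) allele as fl/wt: Blbp-cre acts in radial glia and other neural progenitors and marks their progeny, losing exon 3 makes beta-catenin, which relays Wnt signals, resist breakdown, and Smarca4 encodes a chromatin remodelling ATPase. Each genotype was 1 library pooled from 3 samples, so no difference below has a replicate and none was tested.

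Collagens are secreted or membrane proteins whose chains wind around each other into a helix. Fibrillar collagens give connective tissue its strength, type IV collagens form the sheet-like network of basement membranes, and the fibril-associated and transmembrane types decorate fibrils or cell surfaces. In the embryonic brain, collagen is known mainly from the meninges, the vessel wall and the pial basement membrane on which radial glial endfeet rest.

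Filters left 15793 cells of the control and 15586 of the mutant library, with medians of 9963 and 9641 UMIs. The libraries shared 123 barcodes, 61 of them among kept cells. Collagens made up 0.0698% of control and 0.0879% of mutant UMIs. Smarca4 stood at 67.9 and 49.2 counts per 1000000 UMIs (CPM), but 3′ counts need not fall in the deleted exons and so do not check the deletion. Xist was 364 and 259 CPM and Y-linked genes together 127 and 146 CPM, so the pools differed in their mix of sexes. Of 32 clusters, formed with all collagens left out of the clustering genes, 18 were named, in 14 classes, from marker genes that include no collagen. Besides these, 7 unnamed neural clusters, numbers 22 and 26 to 31, took up a fraction of the mutant library that was 5 or more times their fraction of the control library and are called mutant-dominated. They held 9042 mutant cells (58.0%) and 312 control cells (1.98%), and whether such a cluster is a cell type or a property of its library cannot be told apart with 1 library per genotype.

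Levels are CPM of UMIs summed over cells, given for control and then mutant cells, and ratios are mutant to control. A gene was called higher or lower when its levels, each raised by 1 CPM, differed by 1.5-fold and the 95% interval of the ratio lay on 1 side of 1, and only genes at 10 CPM or more in one of the groups were read. Intervals are exact and hold counting error alone. Over a whole library, fewer cells of a type and less RNA per cell cannot be told apart.

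Over whole libraries 7 collagens differed by the called size. The basement membrane chains Col4a5 and Col4a6, the transmembrane collagens Col23a1 and Col25a1, the fibril-associated Col12a1, and Col26a1 were higher in the mutant library. Col18a1, the source of endostatin, was lower. The fibrillar collagens at the minimum level and the common vascular chains Col4a1 and Col4a2 gave no call. Of the 44 collagens 16 reached 10 CPM, of which 6 were higher and 1 lower. Of all 9789 genes at that level 8.16% were called higher and 5.87% lower, and such shares stand below, in that order, beside each count of collagens. The median log2 ratio of the 16 was 0.01, against 0.03 over all these genes. The other 28 stayed below 10 CPM in both libraries. Just under that level lay Col8a1, at 5.18 and 9.98 CPM, and just above it Col6a1, at 9.74 and 10.0 CPM.

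Among the members called higher, Col4a6 was 16.6 and 79.4 CPM, a ratio of 4.79 (4.60 to 4.99). Its neighbour Col4a5 was 36.9 and 101 CPM, a ratio of 2.75 (2.67 to 2.83). Col23a1, a transmembrane collagen whose outer part can be shed, was 28.1 and 109 CPM, a ratio of 3.90 (3.77 to 4.02). These ratios, with that of Col25a1, were the largest of the collagens read. Col25a1, a transmembrane collagen of neurons, was 13.1 and 47.2 CPM, a ratio of 3.61 (3.44 to 3.78). Col12a1, which binds the surface of fibrils, was 7.82 and 18.4 CPM, a ratio of 2.35 (2.21 to 2.51). Col26a1 was 7.56 and 14.1 CPM, a ratio of 1.86 (1.74 to 2.0), but a gene model on the same strand, Gm20485, overlaps it and makes its counts uncertain. Among cells with Xist and no Y-linked UMI Col26a1 was 10.2 and 10.5 CPM, so that call ended there. The member called lower, Col18a1, was 25.6 and 13.0 CPM, a ratio of 0.508 (0.483 to 0.535).

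**Figure D1:**
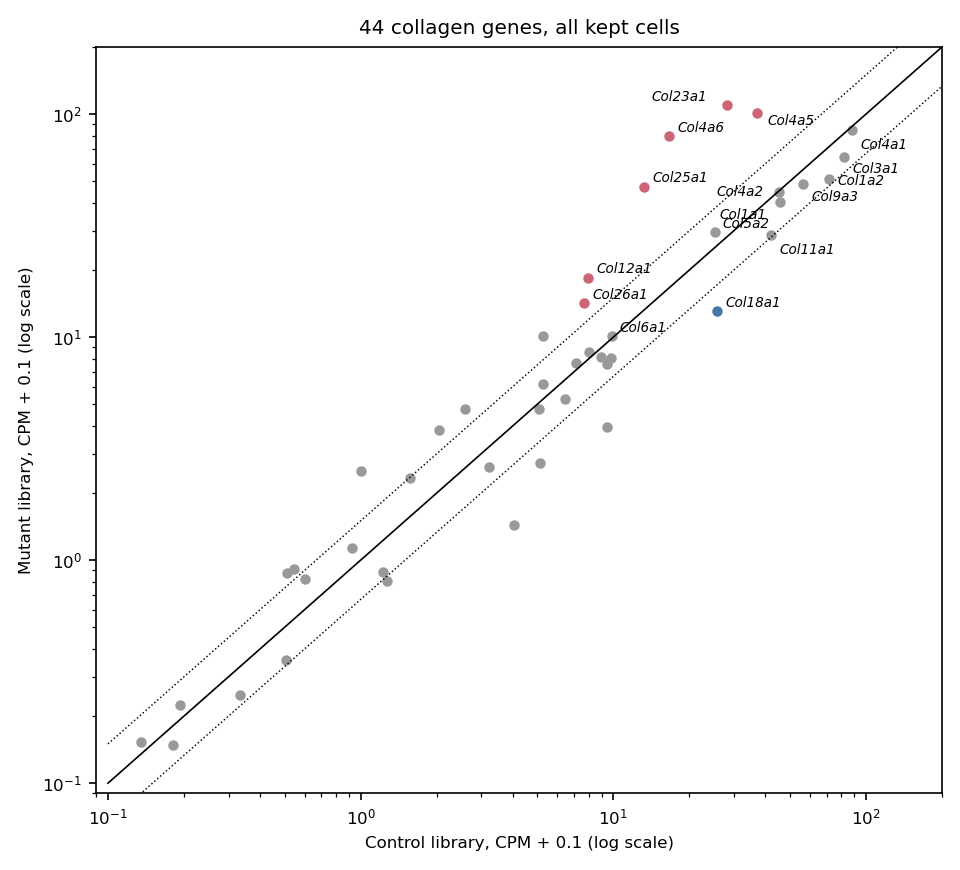
Each point is 1 of the 44 collagen genes, with its level over all kept control cells (x axis) and all kept mutant cells (y axis) in CPM plus 0.1, both axes on a log scale. The solid line marks equal levels and the dotted lines 1.5-fold, and the 6 genes called higher (red) lie above the upper line while Col18a1 (blue) lies below the lower one.

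By structural group, 4 of 6 basement membrane chains were at the minimum level and 2 of these 4 were called higher. Of 4 transmembrane collagens 2 were at the minimum and both were higher, and of 9 fibril-associated collagens 2 were at the minimum and 1 was higher. Of 11 fibrillar collagens 5 were at the minimum and none was called, beside the 8.16% and 5.87% of all genes given above. Col1a1, the main chain of type I fibrils, was 45.7 and 40.1 CPM, a ratio of 0.878 (0.85 to 0.908). Its partner Col1a2 was 71.4 and 51.2 CPM, a ratio of 0.717 (0.698 to 0.737). Col3a1, of soft tissue fibrils, was 81.5 and 64.4 CPM, a ratio of 0.791 (0.771 to 0.811). These fibrillar chains were lower in the mutant library by less than the called size. Calls over whole libraries moved when cells were split by Xist and Y-linked UMIs. The pooled ratios of these chains therefore need not hold in each sex. Col11a1 was 41.9 and 28.5 CPM, a ratio of 0.679 (0.654 to 0.704) that lies close to the 1.5-fold limit. Col4a1 was 87.8 and 84.9 CPM and Col4a2 45.4 and 44.8 CPM, with ratios of 0.968 (0.946 to 0.990) and 0.988 (0.957 to 1.02). The rarer pair Col4a3 and Col4a4 stayed below the minimum, at 0.411 and 0.773 CPM and at 1.47 and 2.23 CPM.

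Much of the collagen RNA of the control cerebellum lay in cells that are few. Fibroblast- or meninges-like cells were 3.34% of control cells and held 41.5% of that library's collagen UMIs. In the mutant library they were 3.45% of cells and held 27.3%. Pericyte- or mural-like cells, which wrap small vessels, held 8.80% and 7.25%. Neural progenitor- or astroglial-like cells held 8.88% of control and 2.30% of mutant collagen UMIs, and were 11.1% and 3.35% of cells. The mutant-dominated clusters alone held 43.0% of the mutant library's collagen UMIs. Collagen was 0.0668% of all UMIs in those mutant cells, 0.0534% in control progenitor-like cells and 1.31% in control fibroblast-like cells. The large mutant share thus came from many cells with a low collagen fraction.

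**Figure D2:**
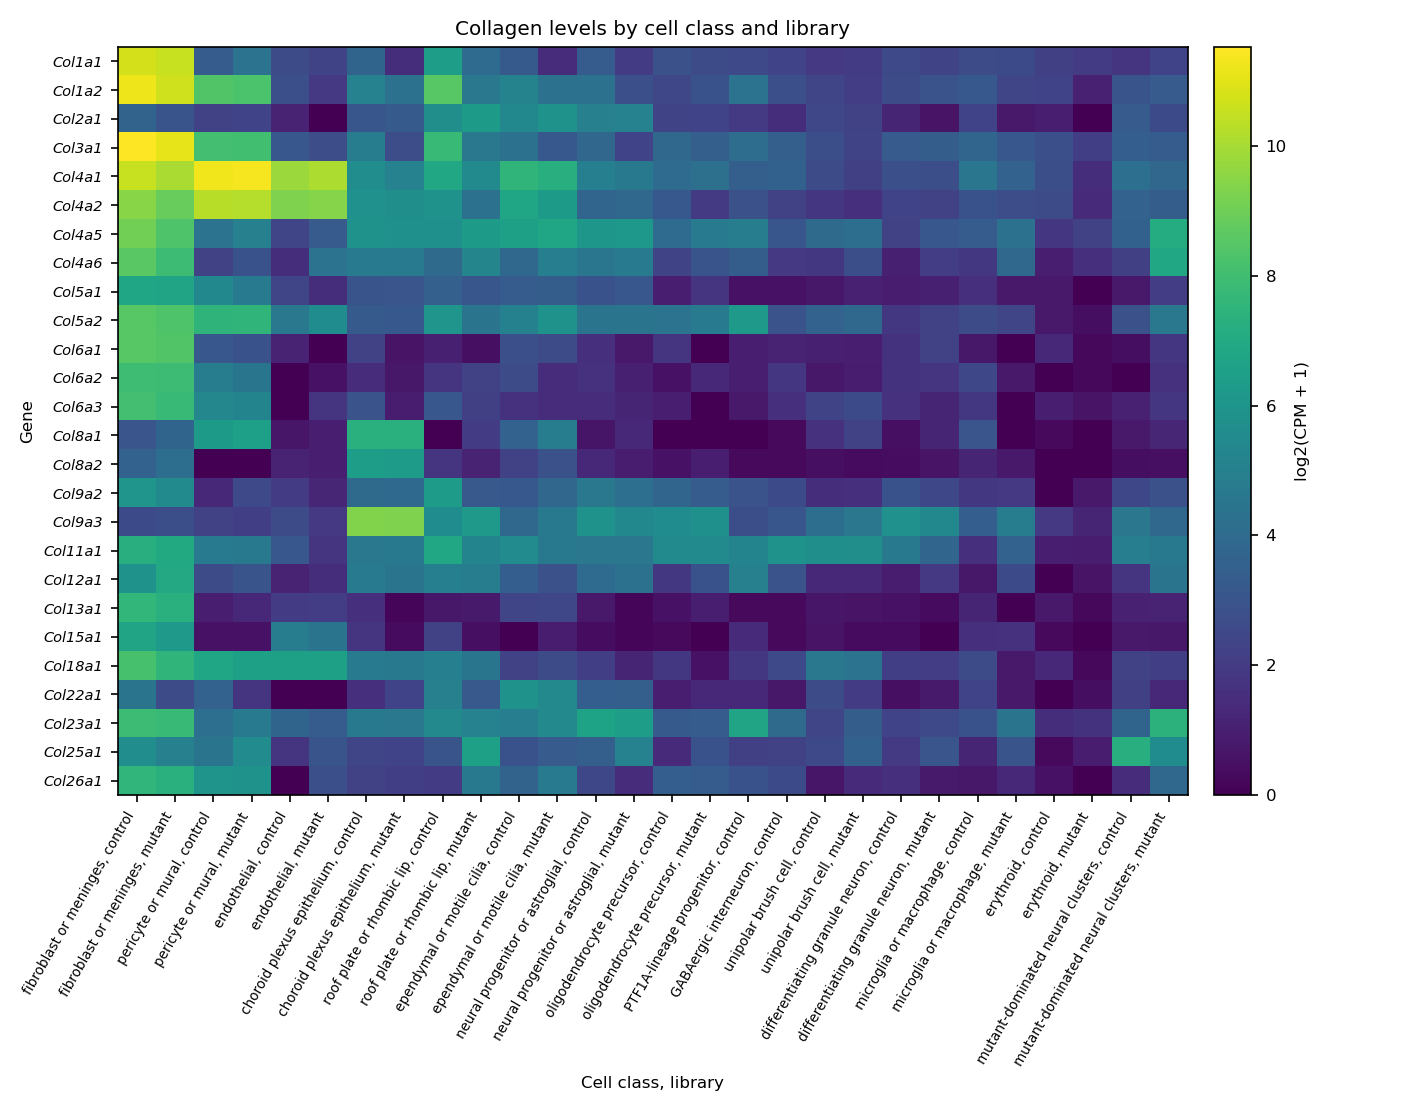
Rows are the 26 collagens at 10 CPM or more in a whole library or at 50 CPM or more in a named class, columns are cell classes in each library with at least 50 cells, and the colour is log2 of CPM plus 1. Reading along a row, the fibrillar collagens other than Col2a1 are brightest in fibroblast-like cells, Col2a1 in mutant roof plate-like cells, Col4a1 and Col4a2 in mural-like cells and Col9a3 in choroid plexus-like cells.

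Collagens differed in the class where their level was highest. The heat map of classes shows fibrillar types I, III and V, the beaded filament chains of type VI and Col13a1 brightest in fibroblast-like cells, where Col1a1 was 1756 CPM and Col6a1 371 CPM in the control library. Col1a1 UMIs lay in that class to 85.0% and 89.6% in the control and mutant libraries. Col4a1 was 2511 and 2653 CPM in mural-like cells, a ratio of 1.06 (1.02 to 1.10). In endothelial-like cells Col4a1 was 889 and 1091 CPM, a ratio of 1.23 (1.15 to 1.31). Neither reached the called size, and Col4a2 was also close between the libraries, at 1241 and 1206 CPM in mural-like and 634 and 685 CPM in endothelial-like cells. Choroid plexus epithelium-like cells, led by Ttr, carried the fibril-associated Col9a3 at 654 and 623 CPM. Their network-forming Col8a1 and Col8a2 had ratios of 0.998 (0.901 to 1.11) and 0.985 (0.856 to 1.14), at 156 and 156 CPM and at 84.1 and 82.9 CPM.

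The neural classes carried collagens too. Col11a1, a fibrillar chain, was 59.2 CPM in control GABAergic interneuron-like cells and 52.6 and 50.3 CPM in unipolar brush cell-like cells. Col2a1, best known from cartilage, was 31.9 and 34.0 CPM in progenitor-like cells and 40.1 and 57.1 CPM in ependymal-like cells. Ependymal-like cells also carried Col22a1, at 59.0 and 41.3 CPM. In cluster 0, an unnamed cluster led by Pvalb, Col9a3 was 90.7 and 93.6 CPM. Erythroid-like cells, which are not known to make collagen, give a reading of the background that can be too low for other cells. Their median was 18785.5 UMIs, against 4420.5 in mural-like and 7743.5 in microglia-like cells, so the same free RNA is a smaller part of theirs. Of the genes followed here, Col3a1 was 6.11 and 3.44 CPM in erythroid-like cells and Col4a5 2.58 and 3.62 CPM. Col4a6 was 0.939 and 1.99 CPM there and Col23a1 1.88 and 2.17 CPM.

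**Figure D3:**
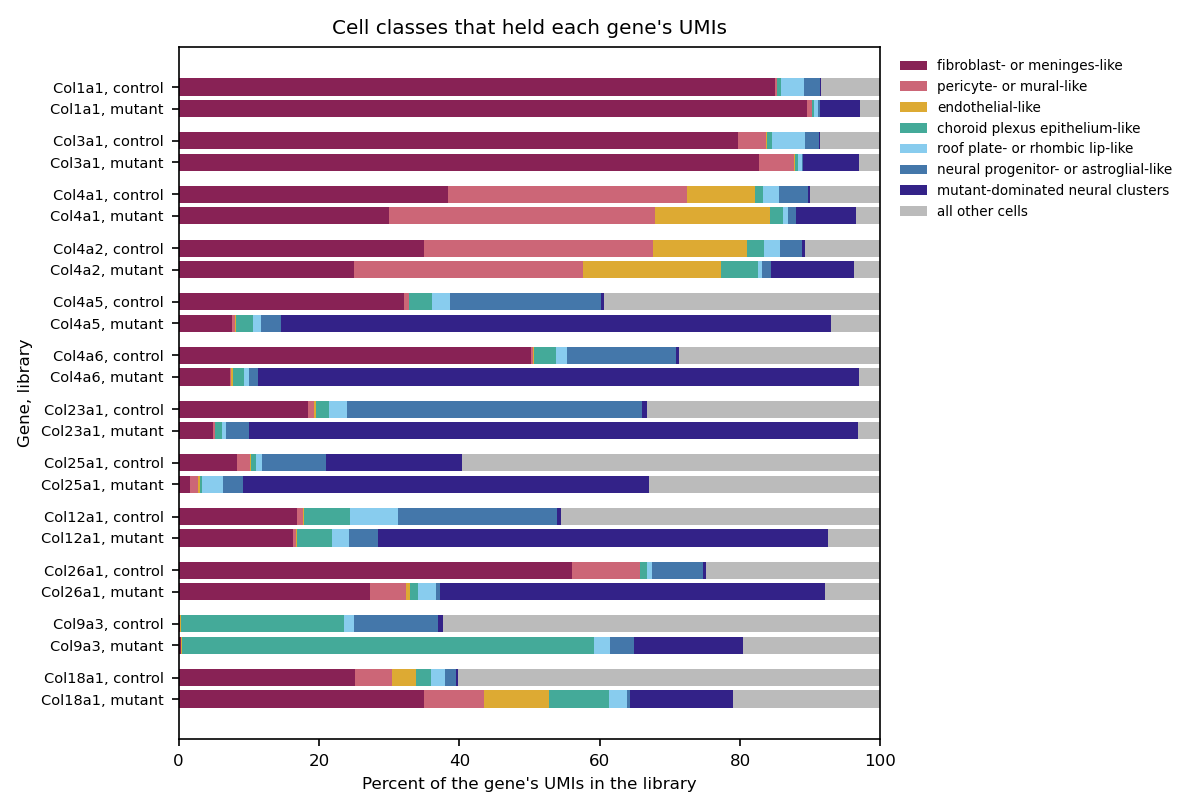
Each bar is 1 gene in 1 library and its segments are the percent of that gene's UMIs found in each group of cells, adding up to 100. The mutant-dominated clusters hold 78.3% of mutant Col4a5 UMIs, 85.6% of Col4a6 and 86.8% of Col23a1, but 8.56% of Col4a1.

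Col4a5 and Col4a6 encode chains known to assemble together in basement membranes of skin and smooth muscle, and their source differed between the libraries. In the control library fibroblast-like cells held 50.2% of Col4a6 and 32.1% of Col4a5 UMIs. In the mutant library these shares were 7.34% and 7.66%, and the mutant-dominated clusters held 85.6% and 78.3%. Both genes lie head to head on chromosome X, in GRCm38 with GENCODE M21: Col4a5 (ENSMUSG00000031274) at 141475385 to 141689234 on the plus strand and Col4a6 (ENSMUSG00000031273) at 141165403 to 141474076 on the minus strand, their starts 1309 bases apart. Col4a1 and Col4a2 on chromosome 8 and Col4a3 and Col4a4 on chromosome 1 face each other in the same way, with starts 21 and 72 bases apart. The sequences before the starts of Col4a5 and Col4a6 are shown because these neighbours were high in the same clusters. They come from the RefSeq promoter windows of GRCm38.p6, ended before the first base of the GENCODE gene, Col4a5 at chrX:141475169-141475384 on the plus strand and Col4a6 at chrX:141474077-141474326 on the minus strand, written 5′ to 3′ with a GC box in capitals.
Col4a5: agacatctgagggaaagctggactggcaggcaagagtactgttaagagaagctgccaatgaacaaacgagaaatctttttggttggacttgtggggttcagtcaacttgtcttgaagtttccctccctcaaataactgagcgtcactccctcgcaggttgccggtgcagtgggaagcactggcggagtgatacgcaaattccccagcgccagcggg
Col4a6: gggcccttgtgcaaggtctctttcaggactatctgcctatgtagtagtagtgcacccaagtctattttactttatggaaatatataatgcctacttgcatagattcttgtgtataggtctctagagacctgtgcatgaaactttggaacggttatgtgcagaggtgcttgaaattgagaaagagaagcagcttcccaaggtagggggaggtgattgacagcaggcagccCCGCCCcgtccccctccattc
The GC box (GGGCGG, or CCGCCC on the other strand) occurred once before Col4a6 and not before Col4a5. The word CAAAG preceded by 2 bases that are each A or T, which TCF and LEF factors of the Wnt pathway can bind, was on neither strand of either window. Of 32851 promoters cut to the same lengths, 13.2% and 14.8% held such a word and 27.9% and 32.7% a GC box. No match says only that these letters are not in this window.

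In the mutant-dominated clusters together, 5 collagens were higher and 6 lower than in control progenitor-like cells, of 16 at the minimum level. Col4a5, Col4a6, Col23a1, Col25a1 and Col26a1 were higher, and Col1a2, Col2a1, Col4a1, Col9a2, Col9a3 and Col27a1 lower. This contrast sets different clusters against each other, and of all 10258 genes 17.9% were called higher and 22.0% lower. The median log2 ratio of the 16 was −0.16, against 0.02 over all genes. Col4a6 was 22.2 and 120.1 CPM, a ratio of 5.41 (4.92 to 5.97). Col4a5 was 68.3 and 140.2 CPM, a ratio of 2.05 (1.94 to 2.17). Col23a1 was 101 and 168 CPM, a ratio of 1.65 (1.58 to 1.73), and Col25a1 10.2 and 48.2 CPM, a ratio of 4.74 (4.12 to 5.48). Lower by the widest margins were Col27a1, a fibrillar collagen, and Col2a1. Col27a1 was 15.4 and 2.40 CPM, a ratio of 0.156 (0.131 to 0.186), and Col2a1 31.9 and 5.09 CPM, a ratio of 0.160 (0.142 to 0.180). Col9a3 was 58.2 and 13.3 CPM, a ratio of 0.228 (0.211 to 0.248). Within the type IV family the X-linked pair was higher while Col4a1 was lower in the same cells, at 30.5 and 12.9 CPM, a ratio of 0.421 (0.382 to 0.465). Col4a2 was 12.5 and 9.45 CPM and gave no call. The reference mattered for some: against control cells of the progenitor-like cluster 12 alone, Col23a1 was 154 CPM against 168 CPM and no longer called. The log2 ratios of Col4a5 and Col4a6 were 0.59 and 1.27 there, that of Col4a5 lying close to the 1.5-fold limit. Against all control neural cells outside these clusters Col2a1, Col4a1, Col9a2 and Col27a1 were no longer called lower, Col4a1 being 15.9 CPM there against 12.9 CPM.

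The mutant-dominated clusters differed widely among themselves. Col4a6 was highest in cluster 30, led by Hpse2 with Gdf10 and Fgf15, at 329.7 CPM (322 to 338). Col4a6 is itself among the 10 leading genes of that cluster, which was formed without it. It was 163 CPM (157 to 169.9) in cluster 29, led by Lgr6, and 149 CPM (141 to 158) in cluster 26, led by Ccnb2 and other mitotic genes. The others lay far lower: 42.0 CPM in cluster 27, 29.9 in cluster 28, 26.9 in cluster 31 and 2.17 in cluster 22, the last close to the 1.99 CPM of mutant erythroid-like cells. Clusters 28 and 31 had overlapping intervals, at 29.9 CPM (27.0 to 33.1) and 26.9 CPM (22.8 to 31.6). Col4a5 was also highest in cluster 30, at 394 CPM (385 to 403), followed by cluster 26 at 193 CPM (184 to 203) and cluster 29 at 146 CPM (141 to 153). It was 87.1 CPM in cluster 31, 46.4 in cluster 28, 43.3 in cluster 27 and 5.60 in cluster 22. For comparison, the fibroblast-like cluster 10 of the mutant library had 478 CPM of Col4a5 and 371 CPM of Col4a6. Against control progenitor-like cells, cluster 30 had 7 of 16 collagens higher and 5 lower, beside 18.8% and 17.7% of all genes. In cluster 27, with 4 of 16 higher and 8 lower beside 22.1% and 28.4%, the pair parted: the Col4a5 ratio was 0.634 (0.581 to 0.691) and that of Col4a6 1.89 (1.69 to 2.13).

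Col23a1 had another order. It was 436 CPM (425 to 446) in cluster 29, 203 CPM (196 to 209) in cluster 30 and 168 CPM (157 to 179) in cluster 31. It was 106 CPM in cluster 26, 106 in cluster 27, 97.5 in cluster 28 and 6.44 in cluster 22. Cluster 29 had 8 of 17 collagens higher and 6 lower than control progenitor-like cells, beside 22.1% and 24.0% of all genes, and was highest of the 7 also for Col12a1 (45.1 CPM) and Col26a1 (50.4 CPM). The summed level of 10 Wnt target genes was 4566 CPM in mutant cells of cluster 29, 2685 in cluster 30, 2937 in cluster 26 and 199 in cluster 22. Control cells of the progenitor-like clusters 1 and 12 had 223 and 329 CPM of these targets. The part of Wnt targets in the collagen levels was not tested. Col25a1 was high in cluster 22, led by Tfap2d, a gene of the dorsal midbrain, at 178 and 112 CPM, a ratio of 0.630 (0.565 to 0.704). That cluster compared with itself had 1 of 5 collagens higher and 2 lower, beside 7.09% and 5.59% of all genes. Without it the mutant-dominated cells had 6 collagens higher, Col12a1 being added, and 6 lower than control progenitor-like cells, beside 17.6% and 21.1% of all genes.

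**Figure D4:**
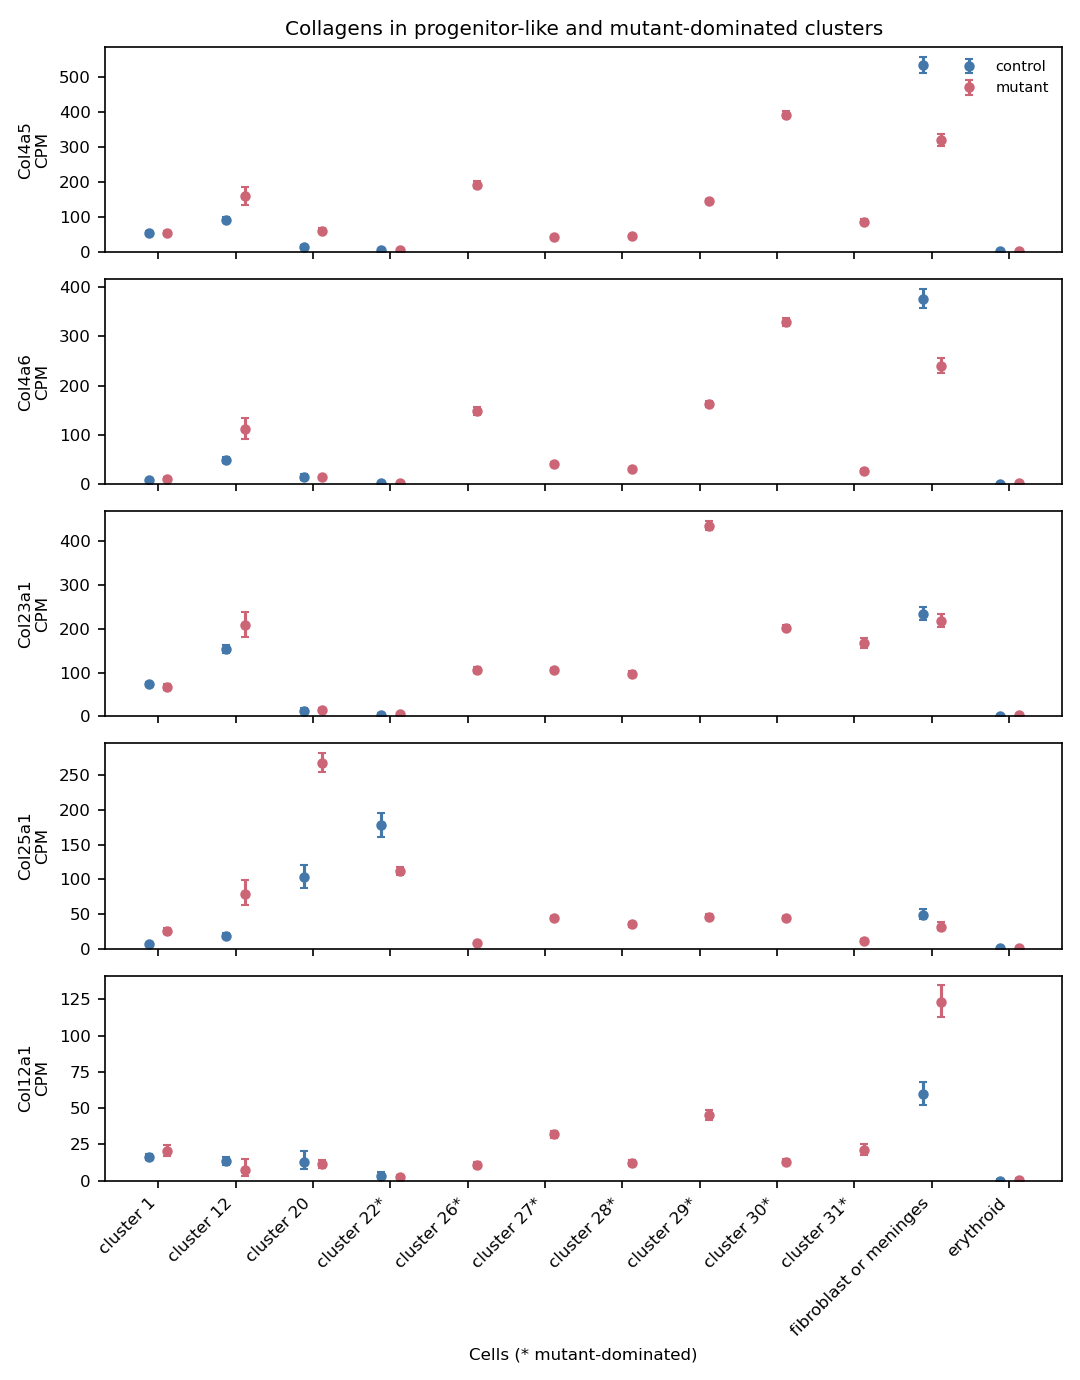
Levels of 5 collagens in CPM with exact 95% Poisson intervals, in progenitor-like clusters 1 and 12, unnamed cluster 20, the mutant-dominated clusters (marked with a star), fibroblast-like cells and erythroid-like cells, for control and mutant groups of at least 50 cells. Among the mutant-dominated clusters Col4a5 and Col4a6 peak in cluster 30, Col23a1 and Col12a1 in cluster 29 and Col25a1 in cluster 22.

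Cells were also counted, after all were thinned to 3000 UMIs. Then 15.9% (15.1 to 16.7) of mutant cells in the mutant-dominated clusters had a Col4a6 UMI, against 6.39% (5.26 to 7.67) of control progenitor-like cells. Thinning left out 1075 and 100 shallower cells, and the unthinned shares were 24.4% and 15.5%, at median depths of 9635 and 10661.5 UMIs. Both thinned shares stood above those of erythroid-like cells, where Col4a6 was seen in 0.441% of control and 1.29% of mutant cells, whose median UMIs were 18847.5 and 18606.5. For Col4a5 the thinned shares were 19.7% (18.9 to 20.6) and 18.3% (16.48 to 20.3), with overlapping intervals, although its CPM was higher in the mutant-dominated cells. After thinning, Col4a5 was seen in 62.0% and 11.8% of mutant-dominated cells with and without a Col4a6 UMI. These shares pool clusters of different levels. By cluster they were 74.2% and 32.2% in cluster 30 and 56.3% and 11.1% in cluster 29, but 0% and 1.74% in cluster 22, where 8 cells had a Col4a6 UMI. In control fibroblast-like cells the shares were 84.6% and 38.6%. In control progenitor-like cells they were 38.0% and 22.8% in cluster 12 and the other way round, 11.1% and 14.97%, in cluster 1, where 3 cells had UMIs of both chains and 24 of Col4a6 alone.

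Clusters holding cells of both libraries were compared with themselves. In cluster 1, progenitor-like cells led by Aqp4 with 1103 control and 445 mutant cells, Col4a5 was 55.4 and 53.9 CPM, a ratio of 0.973 (0.85 to 1.11), and Col4a6 8.12 and 11.3 CPM. There 2 of 18 collagens were higher and 3 lower, beside 2.31% and 2.02% of all genes. In cluster 12, progenitor-like cells led by Gria1 with 657 control and only 77 mutant cells, both chains were higher. Col4a5 was 92.9 and 159 CPM, a ratio of 1.72 (1.44 to 2.04), and Col4a6 49.1 and 112 CPM, a ratio of 2.27 (1.82 to 2.81), among 4 of 15 collagens higher and 4 lower beside 9.73% and 7.73% of all genes. Col4a1 was lower in these cells, at 50.6 and 18.1 CPM, a ratio of 0.358 (0.213 to 0.568). Wnt target UMIs summed to 329 and 691 CPM in cluster 12 and to 223 and 332 CPM in cluster 1, and their part in the difference was not tested. In cluster 20, an unnamed cluster led by Dbx1, Col4a5 was 13.8 and 61.1 CPM, a ratio of 4.42 (2.87 to 7.15), and Col4a6 13.8 and 13.8 CPM. That cluster had 5 of 11 collagens higher and 1 lower, beside 18.6% and 6.11% of all genes.

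Col25a1 was the collagen most often higher within such clusters. Of 23 clusters with at least 50 cells of each library it reached the minimum in 15, and was higher in 10 and lower in 3, where in the median cluster 4.12% of genes were called higher and 4.34% lower. In cluster 1 it was 5.84 and 24.9 CPM, a ratio of 4.26 (3.21 to 5.69). In cluster 12 it was 18.5 and 79.2 CPM and in cluster 20 103 and 268 CPM. Mural-like cells, outside the neural lineage, had 20.9 and 46.0 CPM, while erythroid-like cells had 0.235 and 0.906 CPM. Ttr was 197 and 1131 CPM in mural-like and 140 and 308 CPM in erythroid-like cells. The part of RNA from other cells in the mural value was not tested. Col4a5 was higher in 6 and lower in 0 of 16 clusters, and Col4a6 higher in 5 and lower in 0 of 12. Those 5 include the endothelial-like and the microglia-like cluster, in each of which 1 cell held most of the mutant Col4a6 UMIs. Col11a1, in contrast, was lower in 6 and higher in 1 of 21. Col18a1 was lower in 3 and higher in 0 of 11, among them cluster 0, at 47.5 and 29.1 CPM, a ratio of 0.612 (0.468 to 0.788). Cells outside the listed sources held 60.2% of control Col18a1 UMIs, and cluster 0 itself was 12.5% of control but 1.17% of mutant cells.

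Some Col4a6 calls outside the neural lineage rested on single cells. In endothelial-like cells Col4a6 was 1.81 and 20.0 CPM, but 37 of the 43 mutant UMIs came from 1 cell. In microglia- or macrophage-like cells it was 2.63 and 13.4 CPM, and 17 of the 19 mutant UMIs came from 1 cell. Endothelial-like cells had 2 of 7 collagens higher, Col4a6 and Col5a2, and 0 lower, beside 4.24% and 3.74% of all genes. Microglia-like cells had 5 of 8 higher, Col4a5, Col4a6, Col9a3, Col11a1 and Col23a1, and 2 lower, beside 7.93% and 6.90%. In the same cells Ttr, the main choroid plexus marker, was 240.2 and 5454 CPM and the summed Wnt targets 76.3 and 336 CPM, and the part of RNA from other cells in these calls was not tested.

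Fibroblast-like cells held 2 clusters whose mix differed between the libraries. Cluster 10, led by Slc6a13 with Dcn and Lum, had 452 control and 351 mutant cells, and cluster 4, led by Mgp and Tcf21, had 76 and 187. Over both, 3 collagens were higher and 8 lower of 29, beside 4.87% and 3.92% of all genes. Col4a5 was 536 and 320.4 CPM, a ratio of 0.598 (0.558 to 0.642), and Col12a1 59.7 and 123 CPM, a ratio of 2.07 (1.77 to 2.43). The clusters differed in these same genes: control Col4a5 was 606 CPM in cluster 10 and 8.84 CPM in cluster 4, and control Col12a1 51.7 and 119 CPM. In cluster 10 alone 0 of 26 collagens were higher and 3 lower, Col7a1, Col22a1 and Col25a1, beside 3.61% and 3.47% of all genes. There Col1a1 was 1900.3 and 1897 CPM, Col3a1 3226 and 3094 CPM and Col4a5 606 and 478 CPM, a ratio of 0.788 (0.734 to 0.846). Col22a1, a collagen of tissue junctions, was 23.2 and 7.98 CPM, a ratio of 0.344 (0.202 to 0.563). In cluster 4 2 collagens, Col4a5 and Col12a1, were higher and 4, Col4a1, Col4a2, Col13a1 and Col18a1, lower of 24, beside 3.67% and 8.98% of all genes. Col4a1 was 856 and 384 CPM there, a ratio of 0.449 (0.393 to 0.512), and the summed level of mural markers was 1121 and 572 CPM. The part of mural RNA in the Col4a1 difference was not tested.

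Roof plate- or rhombic lip-like cells, cluster 7, stand for the dorsal midline, which sends out Wnt and Bmp signals. They had 5 collagens higher and 11 lower of 23, beside 9.53% and 6.43% of all genes. Col1a2 was 364 and 23.8 CPM there. This cluster held cells of another kind: 51 of its 336 control cells and 9 of its 249 mutant cells were named neural crest or Schwann at a finer clustering. In these 51 cells Sox10, a transcription factor of neural crest and glia, was 216 CPM, against 0.378 CPM in the other control cells. Col1a2 was 2914 CPM in them, Col3a1 1769 CPM and Col28a1, a collagen of peripheral nerve, 216 CPM. Col14a1 was 139.7 CPM, Col19a1 95.9 CPM and Col16a1 57.5 CPM in the same cells. Without these cells 7 of 19 collagens were higher and 1 lower, beside 10.4% and 4.90% of all genes. The 7 were Col1a1, Col4a6, Col9a3, Col14a1, Col23a1, Col25a1 and Col26a1, and Col22a1 was lower. In the cluster as a whole Ttr was 150.1 and 1982 CPM and the summed Wnt targets 316 and 762 CPM, and their part in these calls, such as that of Col9a3, was not tested. Col1a2 was then 12.5 and 10.8 CPM, a ratio of 0.864 (0.50 to 1.48). Col4a6 was 12.5 and 37.5 CPM without the Schwann-like cells, a ratio of 3.01 (2.0 to 4.62), and 14.9 and 37.0 CPM with them. Col25a1 was 5.29 and 94.1 CPM without them, a ratio of 17.8 (10.4 to 33.1), and 6.97 and 92.8 CPM with them. Only 9 of the 249 mutant cells were Schwann-like, so leaving them out could hardly change the mutant levels of these genes.

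The other named classes follow. Progenitor-like cells as a class had 1 of 16 collagens higher, Col25a1, and 2 lower, Col1a2 and Col3a1, beside 2.05% and 2.57% of all genes. Choroid plexus-like cells had 1 of 19 higher, Col4a4, at 8.10 and 14.9 CPM, with a ratio of 1.84 (1.21 to 2.89), and 3 lower, beside 3.14% and 2.30%. The lower ones were Col1a1, Col1a2 and Col3a1, and in the same cells the fibroblast gene Dcn was 20.5 and 10.1 CPM and Lum 1.73 and 0.392 CPM. The fibroblast markers summed, Dcn and Lum included, were 174 and 180 CPM there, so the list as a whole was not lower. In erythroid-like cells Col1a2 was 3.99 and 1.09 CPM and Col3a1 6.11 and 3.44 CPM, so both were also lower in mutant cells there. The part of free RNA in the low calls was not tested. Ependymal-like cells had 5 of 17 higher, Col4a6, Col5a2, Col8a1, Col9a3 and Col26a1, and 3 lower, Col1a2, Col3a1 and Col11a1, beside 4.87% and 3.66%. Wnt targets summed to 154 and 429 CPM and Ttr to 142 and 330.2 CPM in these cells, and their part was not tested. Mural-like cells had 3 of 21 higher and 1 lower, beside 3.27% and 3.61%. Oligodendrocyte precursor-like cells had 2 of 11 higher and 1 lower, beside 5.36% and 4.57%, the lower one being Col28a1 at 34.4 and 12.8 CPM. Unipolar brush cell-like cells had 1 of 7 higher and 1 lower, beside 1.76% and 0.521%. Differentiating granule neuron-like cells had 0 of 4 higher and 1 lower, Col11a1, beside 2.57% and 2.04%. GABAergic interneuron-like and PTF1A-lineage cells had 9 mutant cells each and were not compared.

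The mix of sexes differed between the pools in several classes. Of fibroblast-like cells 49.6% of control but 10.8% of mutant cells had Xist and no Y-linked UMI, and Xist itself was 417 and 113 CPM in mural-like, 341 and 105 CPM in endothelial-like, 349.9 and 73.4 CPM in choroid plexus-like and 290.1 and 78.2 CPM in ependymal-like cells. Col4a5 and Col4a6 are X-linked, so they were read in each sex. Among cells with Xist only, the Col4a6 ratio of mutant-dominated to control progenitor-like cells was 7.21 (6.02 to 8.72), and among cells with Y-linked UMIs only it was 4.64 (4.07 to 5.30). The Col4a5 ratios were 1.87 (1.71 to 2.05) and 2.20 (2.03 to 2.40). Both chains were thus higher in cells of either sex. In fibroblast-like cells the Col4a6 ratio was 0.989 (0.815 to 1.19) with Xist only and 0.562 (0.501 to 0.631) with Y-linked UMIs only, and the part of sex in the fibroblast difference was not tested further.

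Few of the genes that process, hold and sense collagen were called over whole libraries. The counts of each list here stand beside 8.16% of all genes called higher and 5.87% lower, with a median log2 ratio of 0.03. Of 18 biosynthesis genes at the minimum over whole libraries, 3 were higher and 1 lower, with a median log2 ratio of 0.05. P3h2, a prolyl hydroxylase that acts on basement membrane collagen, was 4.48 and 29.7 CPM, a ratio of 6.63 (6.15 to 7.16). Tll1, a protease that trims procollagen, was 17.3 and 37.7 CPM, and Adamts3, which removes amino-terminal propeptides, 6.49 and 10.9 CPM. Loxl1, a crosslinking oxidase, was the lower one, at 13.0 and 6.67 CPM. Among basement membrane partners such as laminins and nidogens 0 of 10 were higher and 0 lower, and their median was −0.04. Of 5 collagen receptors 1 was lower, Adgrg1, a receptor for type III collagen, at 34.4 and 18.1 CPM. The collagen-degrading proteases had 1 gene at the minimum, Mmp14, which gave no call.

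In the mutant-dominated clusters most of these partners were lower than in control progenitor-like cells, with 27 lower and 3 higher in all. This rests on the reference: against all control neural cells outside these clusters 6 were lower and 5 higher. Of 21 biosynthesis genes 15 were lower and 3 higher, and their median log2 ratio was −0.79, against 0.02 for all genes. Of all genes 22.0% were called lower and 17.9% higher. The collagen chaperone Serpinh1 was 255 and 97.0 CPM. P4ha3, a subunit of prolyl hydroxylase, was 37.2 and 2.62 CPM, and Plod1, a lysyl hydroxylase, 25.2 and 5.90 CPM. P3h2 was higher, at 11.8 and 46.4 CPM, with Tll1 at 0.548 and 52.3 CPM and Pcolce2, an enhancer of procollagen trimming, at 1.30 and 10.8 CPM. Of 7 basement membrane partners 6 were lower, with a median of −1.41. Among them Sparc, which binds collagen, was 654 and 50.3 CPM, Nid1, a linker of laminin and type IV collagen, 196 and 22.5 CPM and the laminin chain Lama2 49.3 and 9.43 CPM. Of 6 receptors 5 were lower, with a median of −1.63, among them Adgrg1 at 93.3 and 11.9 CPM. The protease Mmp14 was 92.5 and 34.1 CPM.

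**Figure D5:**
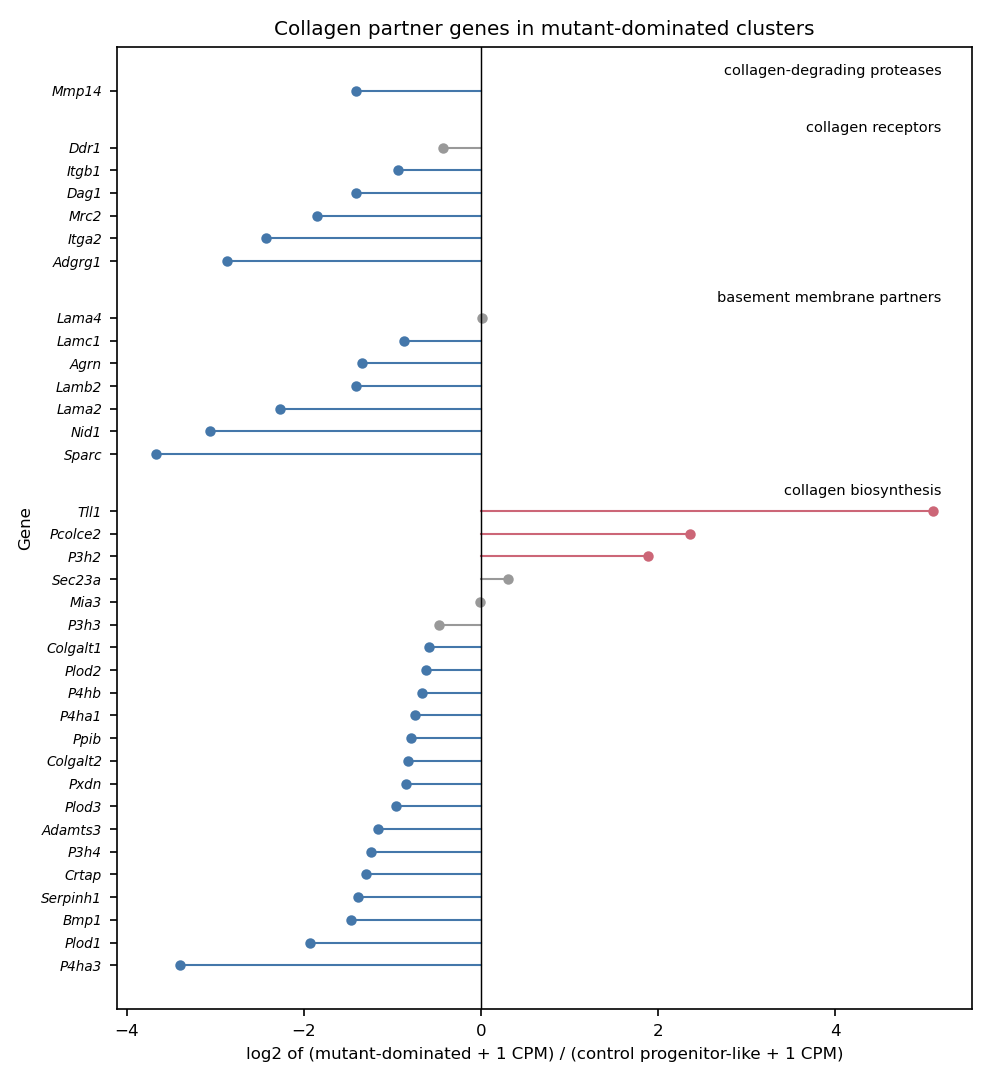
Each point is 1 partner gene at 10 CPM or more, with log2 of its level plus 1 CPM in mutant cells of the mutant-dominated clusters over that in control progenitor-like cells on the x axis, grouped by list. Genes called higher are red, lower blue and not called grey, and the red ones are Tll1, Pcolce2 and P3h2.

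Likeness of pattern was measured as Pearson's r of log2(CPM + 1) over clusters of at least 50 cells, each library apart, and is a description, since clusters share libraries and depth. Col4a5 and Col4a6 had each other as closest gene over all 55 points, with r of 0.910, and had r of 0.923 over the 41 points without a non-neural name. Col4a1 and Col4a2 had r of 0.982 over the 55 points. After Col4a5, the genes most like Col4a6 over the 41 points were Vgll4 (0.900), Lrp4 (0.896), P3h2 (0.891), Foxo1, Spata6, Ptpdc1 and Znrf3 (0.863). For Col4a5 they were Spata6 (0.945) and Pros1 (0.932), ahead of Col4a6, and then Wwtr1, Rest, Lrp4, Plod2 and Tom1l1 (0.905). Over all 55 points, the genes after Col4a5 for Col4a6 were Efcc1 (0.816), Tmem132c, Tmem132cos, Tnfrsf19, Slc22a23, Lrp4 and Slc41a1 (0.727). Those after Col4a6 for Col4a5 were Tom1l1 (0.852), Slc41a1, Fgfr1, Spice1, Ptpn13, Aldh4a1 and Pacsin3 (0.807).

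The 18 collagens not described in full were below 10 CPM in both whole libraries and below 50 CPM in every named class of at least 50 cells. Their highest level in a named class of at least 50 cells was that of Col28a1 in mutant mural-like cells, at 49.5 CPM, followed by Col16a1 in mutant fibroblast-like cells, at 47.9 CPM. Col16a1 was 9.31 and 3.86 CPM over whole libraries and 17.9 and 8.17 CPM in unipolar brush cell-like cells, a ratio of 0.455 (0.361 to 0.569). Col14a1 was 1.93 and 3.73 CPM over whole libraries, Col19a1 0.903 and 2.41 CPM and Col24a1 0.504 and 0.720 CPM. Col24a1 shares its strand with a gene model, D530037P16Rik, and Col20a1 with 9230112E08Rik, so their counts are uncertain.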

How the data were processed

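The deposited files hold UMI counts per gene and cell barcode, which the authors obtained using Cell Ranger 7.0.1 on mm10, per the submitters' processing notes. The annotation and the treatment of intronic reads are not stated in the labels. Barcodes with at least 1000 UMIs, 500 genes and at most 10% mitochondrial UMIs were kept, and doublets called by Scrublet at an expected rate of 16% were removed (1019 of 16812 control and 896 of 16482 mutant cells). Cells of both libraries were clustered together in scanpy 1.11.5 (2000 variable genes, 30 components, 15 neighbours, Leiden resolution 1, no batch correction), leaving out the 44 collagens and all genes of the partner lists, 120 in all. A cluster could be named when at least 3 markers, and 50% of a type's markers, were enriched. That meant a log2 enrichment of 1 and detection in 10% of its cells. Clusters 3, 15, 20 and 31 met this but were left unnamed, since their 10 leading genes held more markers of another type. Cluster 17 was left unnamed as shallow, with no marker among its leading genes. Cluster 22 was left unnamed because Tfap2d was enriched by a log2 of 2 in cells that otherwise met the cerebellar nuclei markers. These naming thresholds were set after the data were seen.

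UMIs were summed per gene, cell group and library and divided by the group's total. The 3 samples pooled in a library cannot be separated, so there is no p-value, and Poisson, binomial and Clopper-Pearson intervals (95%) cover counting error only. Each group's depth sets its precision: 225512196 and 220565819 UMIs were deposited in all. The collagens, the partner lists and the tests were chosen with earlier results of these data known. Genes named were the collagens at 10 CPM or more in a library or 50 CPM in a class of at least 50 cells, the 8 with the largest log2 ratios each way in a comparison, type IV always, 3 called genes each way per list, and the 8 genes most like Col4a5 and Col4a6. Other collagens named from single clusters, and further list genes, were chosen after their values were seen. Coordinates are GENCODE M21 (GRCm38) and promoter letters RefSeq GRCm38.p6, found for 35 of 44 members. The calling step was tested on simulated counts. Alternatives to filters, totals, minimum level, pseudocount, clustering, reference and thinning were fixed first, and those on sex, Schwann-like cells, cluster 4, cluster 12 and the Tfap2d-led cluster were added after seeing the data. Analyses used python 3.11.15, numpy 2.4.6 and scipy 1.17.1.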

Additional observations from a re-analysis of the deposited data

Results flagged for a closer look

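Some collagens were called one way in one class and the other way in another. Each class was 1 library against 1, so the difference between the classes was not tested. How many of all genes did the same was not counted, so this is not a trait of collagens. On the log2 scale, Col1a1 was higher by 1.04 in mural-like cells and stood at −2.39 in roof plate-like cells. Col2a1 was 0.59 in roof plate-like and −0.67 in fibroblast-like cells. Col4a5 was 0.97 in microglia-like and −0.74 in fibroblast-like cells, and Col4a6 was 2.90 in endothelial-like, where 1 cell held most UMIs, and −0.64 in fibroblast-like cells. Col5a2 was 1.005 in endothelial-like and −1.59 in roof plate-like cells. Col11a1 was 2.05 in microglia-like and −1.66 in roof plate-like cells, and Col19a1 was 0.97 in oligodendrocyte precursor-like and −1.33 in roof plate-like cells. Col25a1 was 3.56 in roof plate-like and −0.61 in fibroblast-like cells. The roof plate-like values of Col1a1, Col11a1 and Col19a1 turned positive once the Schwann-like cells were left out. Those of Col5a2, at −0.20, and Col2a1, at 0.49, were then no longer called.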

How the results depend on the processing

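No paired analysis was possible because each genotype has 1 library. Single collagens gave 1141 values over 24 alternative settings, of which 975 kept their direction and call, 144 lost the call, 4 gained one and 18 changed sign, and of the counts 119 stayed within 1.5 times and 27 moved. The counts compared were 6 higher and 1 lower over whole libraries, 28 and 33 calls within classes, 5 and 6 in mutant-dominated clusters, and for partner lists 3 and 2 over whole libraries and 3 and 27 in mutant-dominated clusters. With a minimum of 50 CPM, which leaves fewer genes to read, these became 3 and 0, 5 and 12, 3 and 1, 0 and 0, and 1 and 12. With a minimum of 5 CPM, 3 collagens were lower over whole libraries, 11 lower in mutant-dominated clusters and 5 partners higher over whole libraries. Without haemoglobin UMIs in the totals, 2 collagens were lower and 5 partners higher over whole libraries. At Leiden resolution 0.5, 10 collagens were lower in mutant-dominated clusters. Against all control neural cells, 5 partners were higher and 6 lower there. Without fibroblast-, mural- and endothelial-like cells 3 collagens were lower over whole libraries, with Y-linked UMIs only 12 were higher, and with Xist only 13 were lower. Classes from marker UMIs gave 55 and 61 calls. The cause of these moves was not tested. The shares of all genes called stand beside the main comparisons above and are not given for the alternatives. Col4a6 shares were 12.7% and 4.07% thinned to 2000 UMIs and 24.4% and 15.5% unthinned.

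Signs changed mostly in roof plate-like cells. At Leiden resolution 2 the log2 ratios there were 1.07 for Col1a1, 0.48 for Col3a1, 0.14 for Col4a2, 0.22 for Col9a2, 0.58 for Col11a1 and 0.11 for Col19a1. Without Schwann-like cells they were 1.05 for Col1a1, 0.071 for Col3a1, 0.21 for Col11a1 and 0.62 for Col19a1. With classes from marker UMIs they were −0.56 for Col2a1, 0.20 for Col5a2, 1.08 for Col9a2, −0.38 for Col9a3 and 0.24 for Col19a1, and outside the roof plate −1.17 for Col9a3 and −0.36 for Col11a1 in microglia-like and −0.48 for Col1a1 in mural-like cells. Without cluster 4, 8 fibroblast calls were lost: Col2a1, Col4a2, Col4a5, Col4a6, Col8a1, Col12a1, Col14a1 and Col18a1. Depth limits the rarer members, and 28 collagens below 10 CPM were not read over whole libraries.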

Other observations

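The laminins that share the basement membrane with type IV collagen were read in the collagen-rich classes too. In fibroblast-like cells 1 of 12 basement membrane partners was higher, Lamb2, and 2 were lower, Lama1 and Lamc3, beside 4.87% and 3.92% of all genes. Their median log2 ratio was −0.34, against −0.02 over all genes. Lama1 was 351 and 168 CPM, a ratio of 0.480 (0.437 to 0.526), and Lamc3 118 and 57.2 CPM, a ratio of 0.487 (0.414 to 0.571). These values pool clusters 10 and 4, whose mix differed between the libraries, as did the mix of sexes. The part of either mix in the laminin differences was not tested. In mural-like cells, where 3.61% of all genes were called lower, 1 of 13 basement membrane partners was lower, Lama5, at 33.1 and 18.1 CPM. Of 23 biosynthesis genes 2 were lower there, P3h1 at 25.8 and 12.7 CPM and Loxl1 at 18.5 and 7.84 CPM. Mmp9, a gelatinase, was 406 and 261 CPM in mural-like cells.

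The Wnt target list, whose genes were known to be high in these mutants, had 9 of 9 genes higher over whole libraries. In mural-like cells 5 of 9 were higher, Wif1 standing at 1.46 and 43.6 CPM. Erythroid-like cells had 14.8 and 56.7 CPM of the summed list, and the part of free RNA in the mural values was not tested.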
